A study of Mus musculus with 10 samples.

Results

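The members described here are 83 genes of the mitochondrial respiratory chain, taken by gene symbol from array profiles of diabetic mouse wounds, out of 17359 genes tested. A gene was a member if its symbol on the platform began with Nduf, Uqcr, Atp5 or Cox and a digit from 4 to 8, or was Sdha, Sdhb, Sdhc, Sdhd or Cyc1. Its brightest feature that carried a single gene also had to average above 5 on the log2 scale over all 10 arrays. Of 94 such symbols, 83 passed, 40 of complex I, 4 of complex II, 8 of complex III, 13 of complex IV and 18 of complex V. The members were thus chosen by symbol and by their measured level over all arrays. The difference between the treatments was not part of the rule. The members just inside the limit were Ndufaf5 at 5.00 and Ndufc1 at 5.19, and those just outside were Uqcr10 at 4.92 and Ndufaf2 at 4.84.

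All mice were male db/db animals, BKS(D)-Leprdb/JOrlRj on a C57Bl/6J background, whose leptin receptor is defective and which grow obese and hyperglycaemic. They were 11 weeks old at the start, were caged alone for 1 week, and received 2 full-thickness wounds on the back from a punch of 4 mm. Of either miR-132 mimic or control mimic, 0.5 nmol in 100 µl with a delivery reagent went into each wound, spread over 4 sites around the margin, and wound-edge skin was taken on day 6. The groups held 5 samples each, and 150 ng of RNA per sample was hybridised to a Clariom D array. The mice are a genetic model of diabetes with no non-diabetic group, and pooling of the wounds from 1 animal is not described in the sources used here. The labels do not state that the samples of a group came from separate mice, so p-values measure the spread between these samples.

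A mimic is a synthetic RNA that works like the mature microRNA, which lowers messenger RNAs that pair with its seed. The labels do not say which arm of miR-132 was supplied, so both mature sequences are shown as the reagent's identity, from RefSeq (GRCm38.p6, chr11:75173686-75173707 and chr11:75173723-75173744, plus strand), 5′ to 3′ with the seed, bases 2 to 8, in capitals.
mmu-miR-132-5p: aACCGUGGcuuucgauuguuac
mmu-miR-132-3p: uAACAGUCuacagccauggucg

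The respiratory chain sits in the inner mitochondrial membrane. Complex I takes electrons from NADH and complex II from succinate, coenzyme Q carries them to complex III, cytochrome c carries them on to complex IV, which reduces oxygen, and complex V uses the proton gradient to make ATP. Most subunits are encoded in the nucleus and a few core subunits on mitochondrial DNA. In healing skin, keratinocytes and immune cells also draw heavily on glycolysis, and muscle and brown fat carry their own isoforms of some complex IV subunits.

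Skin markers were present on every array, with Krt14 between 19.84 and the signal limit of 19.93. The span of the clusters' signals, leaving out 10% at each end, was 4.64 to 4.89 in controls and 4.25 to 4.79 with miR-132, with miR-132 replicates 2 (4.25) and 5 (4.46) narrowest. The median SD of a member was 0.20 in controls and 0.26 with miR-132, against 0.18 and 0.26 over all genes with a mean above 5. In bulk tissue fewer cells of a type and less RNA per cell cannot be told apart.

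No respiratory chain member differed between miR-132 and control wounds past the threshold, and most averaged slightly lower. Of the 83 members, 58 averaged lower with miR-132, 24 higher and 1 was equal. The median difference was -0.07 and the mean -0.11 ± 0.13 (SE, n = 5 per group) on the log2 scale. Over all genes tested 53.8% averaged lower, with a median of -0.02, and over genes with a mean above 5, as the members had to be, 61.1% did, with a median of -0.05. The members' share was 69.9%. In limma 0 members passed an adjusted p of 0.05, as did 0 of all genes tested (0.0%), and the lowest adjusted p of a member was 0.593. An unadjusted p under 0.05 was found for 7 members, all lower, and for 0 higher, against 5.7% of all genes lower and 2.43% higher (8.13% in either direction). Over genes with a mean above 5 these shares were 7.34% lower and 1.23% higher, and the members' 7 of 83 stood near the former. Groups overlapped for every member, where 0.657% of all genes were lower and 0.288% higher without overlap.

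**Figure D1:**
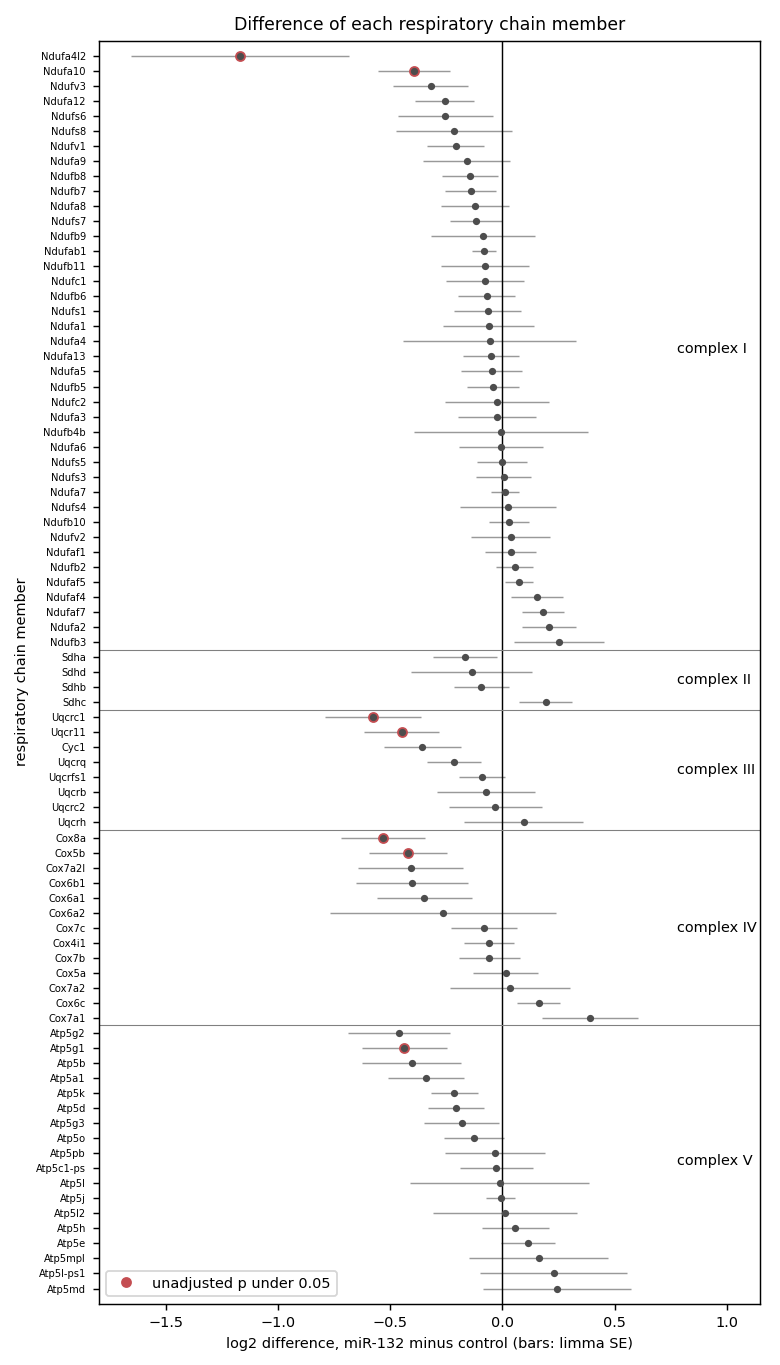
The log2 difference, miR-132 minus control, of each of the 83 members by complex, with limma's SE as bars and members at an unadjusted p under 0.05 in red. Most points lie left of 0 in each complex, and the widest bar belongs to Cox6a2.

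The share of members lower depended on which arrays were kept. Without control replicate 1, 43 of 83 members averaged lower, and without miR-132 replicate 5, 46 did, with mean differences of -0.03 in each case. After a further quantile normalization 34 of 83 averaged lower (41%, with 47.3% of all genes and 45.7% of those with a mean above 5), and the mean was 0.01. Without miR-132 replicates 2 and 5, whose signal span was narrowest, 34 averaged lower again, with a mean of 0.05, against 44.4% of all genes and 46.4% of those with a mean above 5.

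The arrays of each group differed more among themselves than the groups did. The mean over all members was 8.69, 8.19, 8.40, 8.37 and 8.37 on control replicates 1 to 5 and 8.49, 8.13, 8.34, 8.54 and 8.0 on miR-132 replicates 1 to 5. Control replicate 1 was the highest of all 10 arrays and miR-132 replicate 5 the lowest, and the groups overlapped. On control replicate 1, 59 of 83 members (71.1%) had their highest control value, where 29.9% of all genes with a mean above 5 did. Control replicate 2 held the lowest control value of 44 members (53%, against 29.2%). On miR-132 replicate 5, 46 members (55.4%) had their lowest value of the group, against 17.6% of those genes, although miR-132 replicate 2 held that place for 43% of the genes and for 30.1% of the members. These shares describe the 10 arrays and were not tested.

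**Figure D2:**
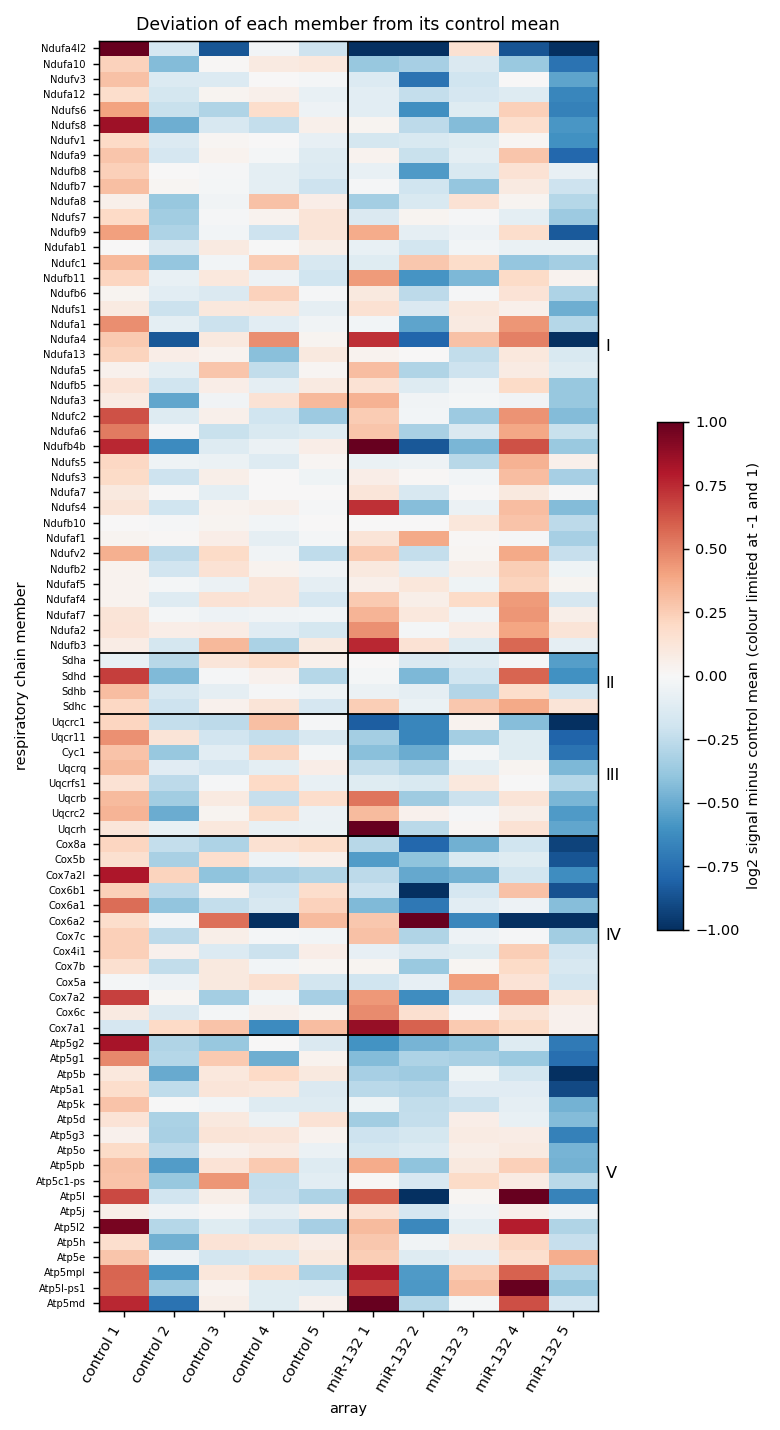
Deviation of each member's log2 signal from its control mean, members in rows by complex and arrays in columns, with the colour limited at -1 and 1. Control replicate 1 is red and control replicate 2 and miR-132 replicates 2 and 5 are blue over most rows of all complexes, and miR-132 replicates 1 and 4 are mixed, with red the more frequent on replicate 4.

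Compared by complex, complex III averaged -0.21 ± 0.14 (SE), complex IV -0.15 ± 0.11, complex V -0.09 ± 0.17, complex I -0.08 ± 0.12 and complex II -0.05 ± 0.14 (n = 5 arrays per group). Differences between complexes were not tested. The members lower were 7 of 8, 9 of 13, 12 of 18, 27 of 40 and 3 of 4 in that order, and the medians were -0.15, -0.08, -0.03, -0.05 and -0.12. Complex III ranged from 8.15 to 8.65 over control arrays and from 7.77 to 8.37 over miR-132 arrays. The ranges of complex I were 7.57 to 8.01 and 7.40 to 7.91, and in both complexes the groups overlapped.

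**Figure D3:**
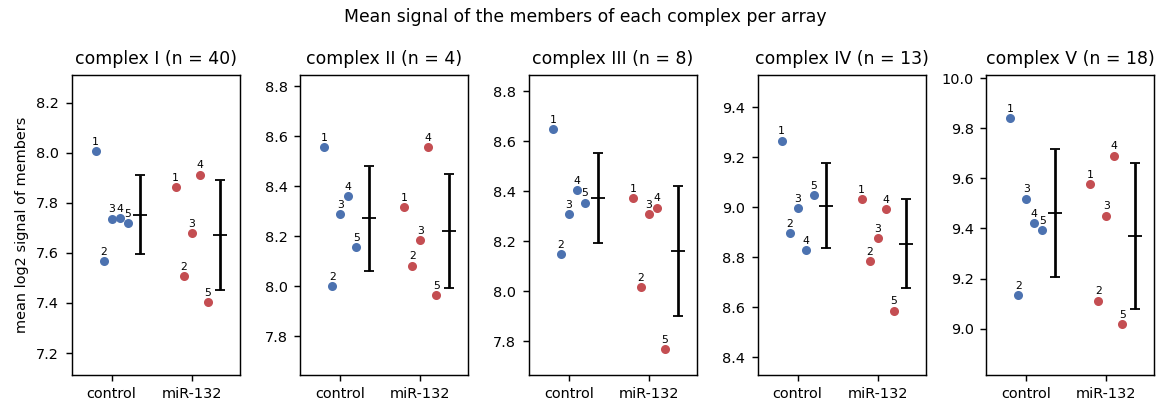
Mean log2 signal of the members of complexes I to V on each array, numbered by replicate, with the mean and SD of each group as black bars and each axis spanning the same 1.2 units. Control replicate 1 is at or near the top in every panel and miR-132 replicate 5 is the lowest miR-132 array in every panel.

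Complex I, NADH dehydrogenase, averaged lower for 27 of 40 members. Of the 36 members other than assembly factors, with Ndufa4 and Ndufa4l2 counted by their names, 27 averaged lower, 8 higher and 1 was equal. Their median was -0.06. The 4 assembly factors among the members, Ndufaf1, Ndufaf4, Ndufaf5 and Ndufaf7, which help build the complex and do not stay in it, averaged higher than control, with a mean of 0.11 ± 0.07 (SE). None of the 4 had an unadjusted p under 0.05, and the difference from the other 36 was not tested. Ndufaf5 averaged 4.97 in control wounds and 5.04 with miR-132, so it passed the limit of 5 only through the miR-132 arrays. Other assembly factors of complex I went in both directions. Ndufaf3, below the limit for members, averaged higher by 0.19 and Tmem126b by 0.07. Ndufaf2 and Ndufaf6 were at 0.00, Acad9 at -0.24, Foxred1 and Nubpl at -0.05 and Timmdc1 and Ecsit at -0.01. Ndufaf7, a methyltransferase that acts early in assembly, was at 5.62 ± 0.07 in control wounds and 5.80 ± 0.20 in miR-132 wounds (SD over 5 arrays), and its unadjusted p in limma was 0.0812. Of the 7 catalytic core subunits encoded in the nucleus 6 were measured, and 4 of these averaged lower, with Ndufv1, which binds NADH, at -0.21 and Ndufs7 at -0.12.

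Ndufa10, an accessory subunit, had the smallest p of complex I. Its signal (cluster TC0100002810.mm.1) was 9.54, 8.88, 9.32, 9.40 and 9.42 on control replicates 1 to 5 and 8.93, 8.98, 9.17, 8.94 and 8.57 on miR-132 replicates 1 to 5. All miR-132 arrays lay below the control mean, and control replicate 2 lay within their range. The difference was -0.39 ± 0.16 (limma's SE; unadjusted p of 0.0335, adjusted p of 0.593), 1.31-fold lower. Ndufa12, an accessory subunit of the arm that holds the NADH site, differed by -0.26 ± 0.13 and was below the mean of the controls on 5 of 5 arrays. The subunits that averaged highest relative to control were Ndufb3 at 0.25 and Ndufa2 at 0.21, with unadjusted p of 0.237 and 0.114 in limma.

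Ndufa4l2 had the largest difference of all members. It encodes a homologue of Ndufa4 that hypoxia induces through HIF-1, and Ndufa4 itself, placed in complex I by its name, is a subunit of complex IV. The signal of Ndufa4l2 was 11.44, 10.02, 9.33, 10.16 and 9.98 on the control arrays and 8.84, 7.91, 10.34, 9.32 and 8.67 on the miR-132 arrays. Of the miR-132 arrays, replicates 1, 2, 4 and 5 lay below every control array, and replicate 3 lay above 4 of the 5 controls. The difference was -1.17 ± 0.49 (SE; limma's unadjusted p of 0.0376, adjusted p of 0.593), 2.25-fold lower on average. Ndufa4 differed by -0.06 ± 0.39 (SE). Without complex I's assembly factors and Ndufa4l2 the mean of complex I was -0.07 ± 0.13 (SE).

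The mean of glycolysis genes, some of which hypoxia also induces, was likewise highest among the miR-132 arrays on replicate 3. Not every gene followed it, since Aldoa (11.18) and Pfkm (9.50) were highest on miR-132 replicate 2. Of 13 measured glycolysis genes 4 were lower at an unadjusted p under 0.05 in limma, against 5.7% of all genes, and 0 past adjustment. In all, 12 of the 13 averaged lower. The other 1, Gapdh, read 17.64 on every array, so a difference could not be told from its feature. The median over the 13 was -0.47. Their mean was 11.16 to 11.42 in controls. With miR-132 it was 10.42, 10.81, 11.51, 10.68 and 10.61 on replicates 1 to 5, so that of the miR-132 arrays replicate 3 alone was not below the control range. Some keratinocyte markers, but not all, had the same array as their highest miR-132 array. Dsg3, a desmosomal cadherin, was at 14.35 on miR-132 replicate 3 and at most 13.25 on the other miR-132 arrays (difference -1.10, limma's unadjusted p of 0.00665, adjusted p of 0.593). Trp63, a transcription factor of basal keratinocytes, was at 8.31 there and at most 7.66 on the others (difference -0.68, unadjusted p of 0.0258 in limma). Krt15 went the other way among the miR-132 arrays, lowest on replicate 3 (5.74) and highest on replicate 1 (10.96). Of 8 keratinocyte markers 6 averaged lower, although Krt1, Krt5, Krt10 and Krt14 were at the signal limit on most arrays. The array means of the 8 were 14.59 to 15.45 in controls and 14.54 to 15.16 with miR-132. Of the miR-132 arrays, replicate 1 had the highest of these means, and replicate 3 was at 14.84. Neutrophil markers averaged lower for 7 of 7, with a median of -0.56 and array means of 10.63 to 12.78 in controls and 10.83 to 11.38 with miR-132. Among these, S100a8 and S100a9 were each at the signal limit on 9 arrays and averaged lower only through miR-132 replicate 5. The part of keratinocytes and neutrophils in the values of glycolysis genes and Ndufa4l2 was not tested. Hk2, a hexokinase, differed by -1.17 and Pfkp, a phosphofructokinase, by -0.78. The order of arrays within groups was not the same for Ndufa4l2 and these genes, since control replicate 1 was highest for Ndufa4l2 and lowest of the controls for glycolysis.

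**Figure D4:**
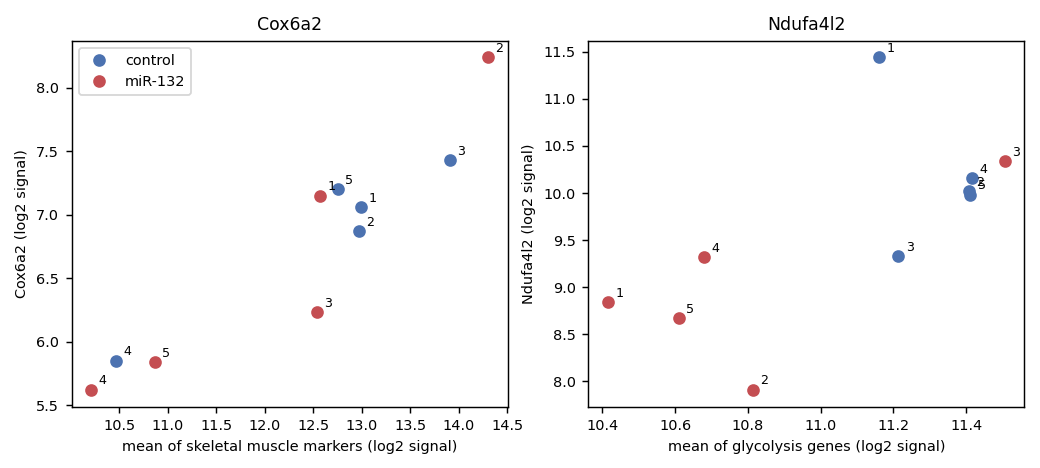
Left, the log2 signal of Cox6a2 against the mean of 10 skeletal muscle markers, and right, that of Ndufa4l2 against the mean of 13 glycolysis genes, with arrays numbered by replicate. Cox6a2 and the muscle mean are both highest on miR-132 replicate 2 and lowest on miR-132 replicate 4, and miR-132 replicate 3 is the only miR-132 array not below the controls' glycolysis range on the right.

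Complex II, succinate dehydrogenase, which also belongs to the citric acid cycle, had all 4 subunits measured and no unadjusted p under 0.05. The catalytic flavoprotein Sdha differed by -0.17 ± 0.14, the iron-sulfur subunit Sdhb by -0.09 ± 0.12 and the membrane anchor Sdhd by -0.14 ± 0.27 (SE). The other anchor, Sdhc, averaged higher by 0.19 ± 0.12 (SE, limma's unadjusted p of 0.134), and 4 of its 5 values with miR-132 exceeded the mean of the controls. All 4 differences were smaller than 2 of their standard errors.

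Complex III, which passes electrons from coenzyme Q to cytochrome c, held 2 of the 7 members at an unadjusted p under 0.05. Of all genes tested, 5.7% were lower at that p. Uqcrc1, a core protein of the complex, measured 10.16, 9.70, 9.68, 10.24 and 9.93 on the control arrays and 9.12, 9.29, 9.98, 9.52 and 8.92 on the miR-132 arrays (cluster TC0900001427.mm.1). Replicates 1, 2, 4 and 5 with miR-132 lay below every control, and replicate 3 lay inside the control range. The difference was -0.58 ± 0.21 (SE), 1.49-fold lower, with an unadjusted p of 0.0233 and an adjusted p of 0.593 in limma.

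Uqcr11, a small accessory subunit, measured 6.00, 5.67, 5.35, 5.30 and 5.38 in controls and 5.20, 4.89, 5.20, 5.42 and 4.74 with miR-132, and replicate 4 alone of the miR-132 arrays reached the control range. It differed by -0.45 ± 0.17 (SE; limma's unadjusted p of 0.0221, adjusted p of 0.593) on a feature close to the limit of 5 for members. Cyc1, the cytochrome that hands electrons to cytochrome c, differed by -0.36 ± 0.17 and Uqcrq by -0.22 ± 0.12 (SE), neither past an unadjusted p of 0.05. Uqcrh, the hinge protein beside Cyc1, was the exception at 0.09, with miR-132 replicate 1 at 10.52 and the other miR-132 arrays at 8.91 to 9.57.

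Complex IV, cytochrome c oxidase, had 9 of 13 members lower and the smallest p of the whole set. Cox8a, the widely expressed form of its smallest subunit, measured 10.51, 10.06, 9.99, 10.45 and 10.48 in controls and 10.02, 9.51, 9.82, 10.10 and 9.37 with miR-132 (cluster TC1900001036.mm.1). All miR-132 arrays lay below the control mean of 10.30, and replicates 1 and 4 overlapped the lower controls. The difference was -0.53 ± 0.19 (SE), 1.45-fold lower, with an unadjusted p of 0.0176 and an adjusted p of 0.593 in limma.

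Cox5b, a subunit on the matrix side, measured 10.08, 9.60, 10.09, 9.87 and 9.97 in controls and 9.36, 9.52, 9.77, 9.80 and 9.06 with miR-132. All 5 miR-132 values were below the mean of the controls and overlapped them through control replicate 2, with a difference of -0.42 ± 0.17 (SE; limma's unadjusted p of 0.0364, adjusted p of 0.593). Cox7a2l, which is linked to supercomplexes of complexes III and IV, differed by -0.41 ± 0.23, Cox6b1 by -0.40 ± 0.25 and Cox6a1 by -0.35 ± 0.21 (SE). Cox6c averaged higher by 0.16 ± 0.09.

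Isoforms of complex IV that muscle and brown fat use varied widely between arrays, and the wounds cut through the panniculus carnosus, the muscle sheet of mouse skin. Cox6a2, the muscle form paired with Cox6a1, measured 7.06, 6.87, 7.43, 5.85 and 7.20 in controls and 7.15, 8.24, 6.23, 5.62 and 5.84 with miR-132. Its difference of -0.27 ± 0.50 (SE) was smaller than its error, and control replicate 4 and miR-132 replicates 4 and 5 were its lowest arrays. The means of 10 measured skeletal muscle markers, of 10 listed, were 12.99, 12.97, 13.90, 10.46 and 12.75 in controls and 12.57, 14.30, 12.54, 10.21 and 10.87 with miR-132, and the same 3 arrays were the lowest. The mean of these markers differed by -0.52 ± 0.92 (SE), and their part in the values of Cox6a2 was not tested.

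Cox7a1, the form of Cox7a2 found in muscle and brown fat, was the member with the largest higher average. It measured 5.22, 5.59, 5.67, 4.76 and 5.70 in controls and 6.26, 5.98, 5.65, 5.58 and 5.43 with miR-132, a difference of 0.39 ± 0.21 (SE; limma's unadjusted p of 0.0975, adjusted p of 0.654). Every miR-132 array exceeded the control mean of 5.39, and replicates 3, 4 and 5 lay within the control range. Cox7a2 itself differed by 0.03 ± 0.27 (SE). Muscle markers averaged lower for 10 of 10, and adipocyte markers higher for 8 of 8, with array means of 7.91 to 10.45 in controls and 8.0 to 11.47 with miR-132, replicate 1 being the highest. Of 6 brown fat markers 4 passed the level filter, and Ucp1 was not among them. Of these 4, 3 averaged lower and 1 higher, with a mean of -0.18 ± 0.20 (SE). The part of these cell types in the value of Cox7a1 was not tested.

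Outside the members by their level, Cox8b, the third muscle isoform, averaged 4.38 over all arrays, and Cox4i2, a form linked to low oxygen and lung, averaged 4.75. Cox4i2 was the only one of the 94 symbols whose groups did not overlap, where 0.657% of all genes were lower and 0.288% higher without overlap. It measured 4.41, 4.73, 4.72, 4.68 and 4.62 in controls and 4.76, 4.92, 4.94, 4.80 and 4.94 with miR-132. The difference was 0.24 ± 0.07 (SE; limma's unadjusted p of 0.00783, adjusted p of 0.593), on a feature only slightly above the level filter of 4.17. The 11 symbols with a mean not above 5 had differences between -0.23 and 0.24, and the testis forms Cox6b2, Cox7b2 and Cox8c averaged 4.04, 3.68 and 4.30.

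Complex V, the ATP synthase, averaged lower for 12 of 18 members, among them both main subunits of its catalytic head. Atp5g1, which encodes a form of the rotating c subunit, measured 8.78, 8.02, 8.56, 7.81 and 8.34 in controls and 7.87, 7.99, 7.98, 7.93 and 7.55 with miR-132. All miR-132 arrays lay below the control mean of 8.30, and control replicate 4 lay within their range. The difference was -0.44 ± 0.19 (SE), 1.35-fold lower, with limma's unadjusted p at 0.0433 and an adjusted p of 0.608.

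The alpha and beta subunits of the head, Atp5a1 and Atp5b, differed by -0.34 ± 0.17 and -0.40 ± 0.22 (SE), each below the mean of the controls on 5 of 5 arrays, and Atp5d, of the central stalk, by -0.21 ± 0.13 (SE). Atp5k, a membrane subunit, differed by -0.21 ± 0.10, with an unadjusted p of 0.0658 in limma. The small membrane-bound proteins Atp5md and Atp5mpl averaged higher by 0.24 ± 0.33 and 0.16 ± 0.31 (SE), within their errors.

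Several bright features of complex V carry a gene symbol away from that gene's locus or belong to gene copies. The feature of Atp5l that the rule kept averaged 13.47, and its identifier places it on chromosome 5, whereas the RefSeq gene table places the gene on chromosome 9, where its features averaged 6.45 and 3.38. For Atp5g2 the kept feature is on chromosome 7 and the gene on chromosome 15, at 12.92 and 12.70. Atp5l-ps1 and Atp5c1-ps are annotated as pseudogenes, and Atp5l2 had no match in the gene table, and such features can share signal with the parent gene. With the features on the genes' own chromosomes, Atp5g2 differed by -0.55 instead of -0.46 and the mean of complex V was -0.10 instead of -0.09. The features of Atp5l, Atp5l2, Atp5l-ps1, Atp5md and Atp5mpl ranged over 1.41 to 2.16 between arrays, with no difference larger than its error.

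**Figure D5:**
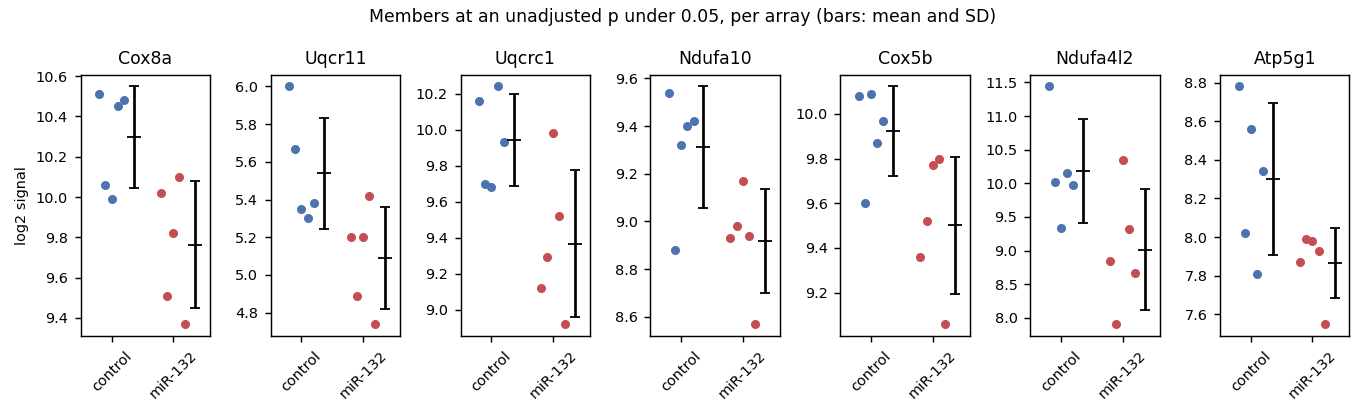
Log2 signal per array of the 7 members at an unadjusted p under 0.05, in order of p, with the mean and SD of each group as black bars and points in replicate order. In every panel the miR-132 mean is lower and at least 1 array overlaps the other group.

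Other genes of oxidative metabolism did not pass the threshold either. Of 41 assembly factors outside the rule 32 were tested, 16 lower and 16 higher, with a median of 0.00, and Sdhaf4 at 0.26 and Atpaf2 at -0.20 had the smallest p. Of 15 measured citric acid cycle genes 8 averaged lower and 7 higher, with a median of -0.01. Mdh2, the mitochondrial malate dehydrogenase, differed by -0.33 ± 0.14 (SE; limma's unadjusted p of 0.0446) and Cs, citrate synthase, by -0.59 ± 0.28 (SE), and each lay below the control mean on 5 of 5 arrays. Of 12 genes for cytochrome c and coenzyme Q synthesis 8 averaged lower, with a median of -0.03, and Coq6 (-0.06) and Coq3 (0.10) had the smallest p. Of 13 subunits encoded on mitochondrial DNA 0 had a feature with a single gene named here.

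Of 11 measured regulators of mitochondrial biogenesis 8 averaged lower, with a median of -0.04. Against 8.13% of all genes tested, 1 of the 11 had an unadjusted p under 0.05 in limma. This was Nrf1, a transcription factor of many respiratory chain genes, at 5.82 ± 0.07 in control wounds and 5.66 ± 0.10 in miR-132 wounds (SD over 5 arrays). Its difference of -0.16 ± 0.06 (SE) had an unadjusted p of 0.0221 and an adjusted p of 0.593 in limma. Pprc1, a coactivator related to PGC-1alpha, differed by -0.11. Ppargc1a, which encodes PGC-1alpha, was dim at 4.70 and 4.66.

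Promoter windows of RefSeq (GRCm38.p6, 250 bases before to 50 after the start) were found for 66 of 83 members. The NRF1 motif, GCGCA followed directly by its reverse complement TGCGC and so the same on both strands, was in the windows of 6 of these members (9.09%), against 2.04% of the 10417 tested genes with a window and 0.971% of all windows. The YY1 motif AAGATGGC, on either strand, was in 9 members (13.6%, against 4.83% of tested genes and 2.75% of all windows), 7 of them in complex I. The ETS motif CCGGAAGT, on either strand, was in 5 (7.58%, against 7.98% and 3.89%). These matches describe letters in the windows, not binding. Of the 6 members with the NRF1 motif 4 averaged lower, and of the 60 without it 43 did.

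The windows of 3 members with the NRF1 motif that averaged lower, and of Cox8a, which had the smallest p of all members and holds the ETS motif at 2 places, show where the motifs lie. Each is printed in the direction of the gene with the motifs in capitals (Uqcrc1 at chr9:108936398-108936697, plus strand, and the others on the minus strand, Cox6a1 at chr5:115348909-115349208, Atp5k at chr5:108434350-108434649 and Cox8a at chr19:7217567-7217866). The motif begins at base 31 after the start in Uqcrc1, at base -162 in Cox6a1 and at base -50 in Atp5k, and in Cox8a the ETS matches begin at bases -6 and 32.
Uqcrc1: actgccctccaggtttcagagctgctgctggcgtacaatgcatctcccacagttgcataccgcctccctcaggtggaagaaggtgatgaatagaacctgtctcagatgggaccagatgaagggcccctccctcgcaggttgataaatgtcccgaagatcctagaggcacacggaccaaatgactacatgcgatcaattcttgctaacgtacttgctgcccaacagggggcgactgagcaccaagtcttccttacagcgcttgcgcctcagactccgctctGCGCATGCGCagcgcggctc
Cox6a1: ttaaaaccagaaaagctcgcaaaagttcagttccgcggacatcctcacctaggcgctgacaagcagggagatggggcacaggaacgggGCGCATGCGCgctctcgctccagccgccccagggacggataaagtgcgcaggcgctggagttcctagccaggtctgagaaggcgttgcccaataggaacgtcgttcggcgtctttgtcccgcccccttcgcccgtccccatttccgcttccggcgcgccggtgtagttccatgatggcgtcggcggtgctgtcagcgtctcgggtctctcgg
Atp5k: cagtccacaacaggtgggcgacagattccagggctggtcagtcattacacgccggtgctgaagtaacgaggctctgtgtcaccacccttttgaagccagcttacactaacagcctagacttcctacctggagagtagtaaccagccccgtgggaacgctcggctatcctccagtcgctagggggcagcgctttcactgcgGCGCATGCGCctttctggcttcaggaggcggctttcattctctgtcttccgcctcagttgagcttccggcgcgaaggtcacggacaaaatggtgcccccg
Cox8a: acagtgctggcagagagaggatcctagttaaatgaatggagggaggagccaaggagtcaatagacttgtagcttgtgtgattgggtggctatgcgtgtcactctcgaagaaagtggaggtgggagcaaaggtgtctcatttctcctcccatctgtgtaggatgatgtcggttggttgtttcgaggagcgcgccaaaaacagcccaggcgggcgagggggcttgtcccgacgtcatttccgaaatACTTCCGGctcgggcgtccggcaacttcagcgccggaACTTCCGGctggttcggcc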

How the data were processed

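Clariom D arrays of 10 wound-edge samples were deposited as a table of log2 signals that the authors made with Affymetrix Expression Console 1.4 and RMA, per the submitters' processing notes. The log2 scale was taken from the values, which end at 19.93. No source used here names the genome build of the clusters. Of 72688 features 30604 carried a single gene, 2146 several and 39938 were unnamed here, and 827 symbols were updated through gene IDs. Each gene was read from its brightest feature with a single gene. The 17359 genes with a mean above the median feature mean of 4.17 were fitted with limma 3.58.1 in R 4.3.3 (lmFit and eBayes with an intensity trend, two-sided), with Benjamini-Hochberg adjustment over all of them at 0.05 and no block. The fit was tested on simulated data. SEs of means over members come from the 5 array means per group.

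Groups and replicate numbers come from the sample titles. The labels do not say that equal numbers mark shared animals or days. No 2 arrays held identical values. The number of arrays limits the precision. The rule for named members, which gave 25, took the 4 with the smallest unadjusted p in each complex, the measured isoforms of muscle, brown fat, testis and low oxygen with their partners, and those nearest the level limit, besides the brightest and dimmest of each complex as a description. For other lists it took the 2 genes with the smallest p. Further members were named after their values were seen. The members and all gene lists were chosen with earlier results of these data known. Other normalizations, filters, fits and arrays left out were tried, and their effect is given in the closing section.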

Additional observations from a re-analysis of the deposited data

Results flagged for a closer look

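Of 62 groups of 5 arrays tested, 5 had an array whose gap to its nearest neighbour was large against the range of the group, by Dixon's criterion, which chance alone meets in about 5% of groups. On miR-132 replicate 5, Atp5a1 was at 12.34 (nearest array 12.95), Atp5g1 at 7.55 (7.87), Ndufa12 at 8.14 (8.56) and Sdha at 8.19 (8.59), each the lowest of its group. On control replicate 1, Ndufaf7 was at 5.75 and the nearest control at 5.60, the highest of its group.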

How the results depend on the processing

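No alternative brought a member past an adjusted p of 0.05 in limma. Without miR-132 replicate 3, 55 of all genes passed it, 0 of them members, and the lowest adjusted p of a member was 0.129. Of 83 members, 29 averaged lower and 12 higher under each of 21 alternatives, and 42 changed direction under at least 1. Some of the 21 could not change a direction. Dropping the level filter or the intensity trend, robust eBayes and the replicate block leave each member's difference as it was. After quantile normalization 41% of members averaged lower, and the mean difference was 0.0063 over all members, 0.014 for complex I, 0.067 for complex II, -0.09 for complex III, -0.02 for complex IV and 0.037 for complex V, with Sdhb at 0.0064 and Sdhd at 0.016. Without miR-132 replicates 2 and 5 the share was again 41%, 4 members had an unadjusted p under 0.05, and the mean was 0.050 over all members, 0.065 for complex I, 0.080 for complex II, -0.03 for complex III, -0.04 for complex IV and 0.11 for complex V, with Sdhd at 0.12. The hybridisation controls averaged 10.61, 10.57, 10.98, 10.9 and 10.95 on miR-132 replicates 1 to 5 and 10.43 to 10.61 on control arrays. They thus partly followed the treatment and cannot be fully separated from it. With the hybridisation controls as covariate 2 members had an unadjusted p under 0.05, Cox6a2 was at 0.66, Cox7a2 at -0.042 and Ndufc1 at 0.16. The cause of these changes was not tested.

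With each replicate left out in turn, genes called ranged from 0 to 55, members at an unadjusted p under 0.05 from 2 to 10 and the share of members lower from 51.8% to 80.7%. The mean differences ranged from -0.17 to -0.03 over all members, -0.14 to -0.01 for complex I, -0.14 to 0.019 for complex II, -0.27 to -0.12 for complex III, -0.20 to -0.09 for complex IV and -0.17 to 0.0039 for complex V. Those of single members ranged from -0.073 to 0.20 for Cox7a2, -0.18 to 0.0025 for Ndufc1, -0.32 to 0.035 for Sdhd and -0.67 to -0.02 for Cox6a2. Without control replicate 1, Cox7a2l was at -0.21, Atp5g2 at -0.26, Cox6a1 at -0.21, Uqcrq at -0.14 and Sdhb at -0.02. Without miR-132 replicate 5, Atp5a1 was at -0.20, Ndufa12 at -0.16 and Sdha at -0.07. Cox7a1 was at 0.24 without control replicate 4, and Ndufaf7 at 0.12 and Ndufaf5 at 0.04 without miR-132 replicate 4. The values nearest 0 for complexes I, III and IV came without miR-132 replicate 5. The positive ends for complex II, complex V, Ndufc1 and Sdhd came without control replicate 1.

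With the replicate number as a block, 5 members had an unadjusted p under 0.05 and 0 passed adjustment, and no call changed. Same-numbered arrays deviated together with correlations from -0.03 to 0.16, so the numbers were not taken as pairs. Own-chromosome features for Atp5g2 and Atp5l, and the count at an unadjusted p under 0.05, were added after seeing the data.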
